A study of Mus musculus with 6 samples.

Results

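The endoplasmic reticulum (ER) is where liver cells fold the plasma proteins they secrete, and the genes described here form its folding machinery and the signalling that adjusts it, the unfolded protein response. They are 40 genes taken by symbol from a fixed list, out of 54446 genes in the deposited count table. The list was chosen with earlier results of these data known, so its share of called genes is not independent of them. By role they are 5 stress sensors and transcription factors, 17 ER chaperones and folding factors, 8 genes of ER-associated degradation (ERAD, the export of misfolded proteins for destruction), 3 genes of protein translocation and vesicle coats, and 7 target genes of the transcription factor ATF4. Of the 40, 39 passed the filter on low counts that left 15368 genes for testing. Stc2, an ATF4 target that encodes a secreted glycoprotein, was the exception.

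Poly-A RNA of mouse liver cells was sequenced in 6 libraries, 2 from each of weeks 0, 2 and 7 of a treatment named in the series title as MET/CAT and SB transposase. MET is a receptor tyrosine kinase, a transposase inserts DNA into a genome, and the labels do not expand CAT. Week 0 is the only baseline, and no untreated mice of weeks 2 or 7 were analysed here, so age and treatment cannot be told apart in any comparison. The strain label of week 0 replicate 1 names FVB/N together with C57BL/6 as a mixed background, and in the other libraries another number follows C57BL/, so their background is unsure. Neither age nor the delivery of the agents is given. Library totals were 49353453 to 58434358 deposited counts. Nothing says whether the replicates are separate animals, so p-values measure the spread between these libraries. Xist, the X-inactivation RNA, had 0.200 and 0.311 CPM at week 0, 221 and 216 CPM at week 2 and 0 and 0 CPM at week 7. The Y-linked gene Ddx3y had 42.3 and 39.3 CPM at week 0, 0 and 0 CPM at week 2 and 37.9 and 45.0 CPM at week 7. The week 2 libraries thus read as female and the others as male, so week 2 differs from the other weeks in sex as well as in time.

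The response has several arms. IRE1 (gene Ern1) splices the mRNA of Xbp1, and the spliced form and ATF6, which is cut free from the membrane, switch on chaperone and ERAD genes. PERK (gene Eif2ak3) phosphorylates the initiation factor eIF2alpha, which slows translation while favouring that of ATF4. ATF4 in turn drives genes of amino acid supply and, with CHOP (gene Ddit3), of apoptosis and of recovery. Kinases that sense other stresses also act through ATF4.

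Most chaperone genes and part of the ERAD genes were lower in the treated liver. Of the 6 tested ATF4 targets, 1 rose and 1 fell at week 7. At week 7 against week 0, 25 of the 39 tested genes fell and 1 rose (edgeR quasi-likelihood test, Benjamini-Hochberg adjusted p under 0.05). Of all genes tested, 6.23% fell, 7.58% rose and 13.8% did either. Fallen genes made up 16 of 17 chaperones and folding factors, 4 of 8 ERAD genes and 3 of 3 translocation and coat genes. They also made up 1 of 5 sensors and factors and 1 of the 6 tested ATF4 targets. The single riser was Psat1, an ATF4 target. The log2 fold changes of Trib3, Chac1 and Ppp1r15a were above 0 but not called, and 7700 of all 15368 genes tested were above 0. Asns passed the filter through its week 7 libraries alone, so its sign is tied to the filter and is not counted. The median log2 fold change was -0.586 over the 17 chaperones and -0.586 over the 8 ERAD genes, all of which were tested, and 0.00156 over all genes tested. Leaving out 1 library at a time gave between 19 and 24 called genes, and a fit without the week 2 libraries gave 24, against 26.

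**Figure D1:**
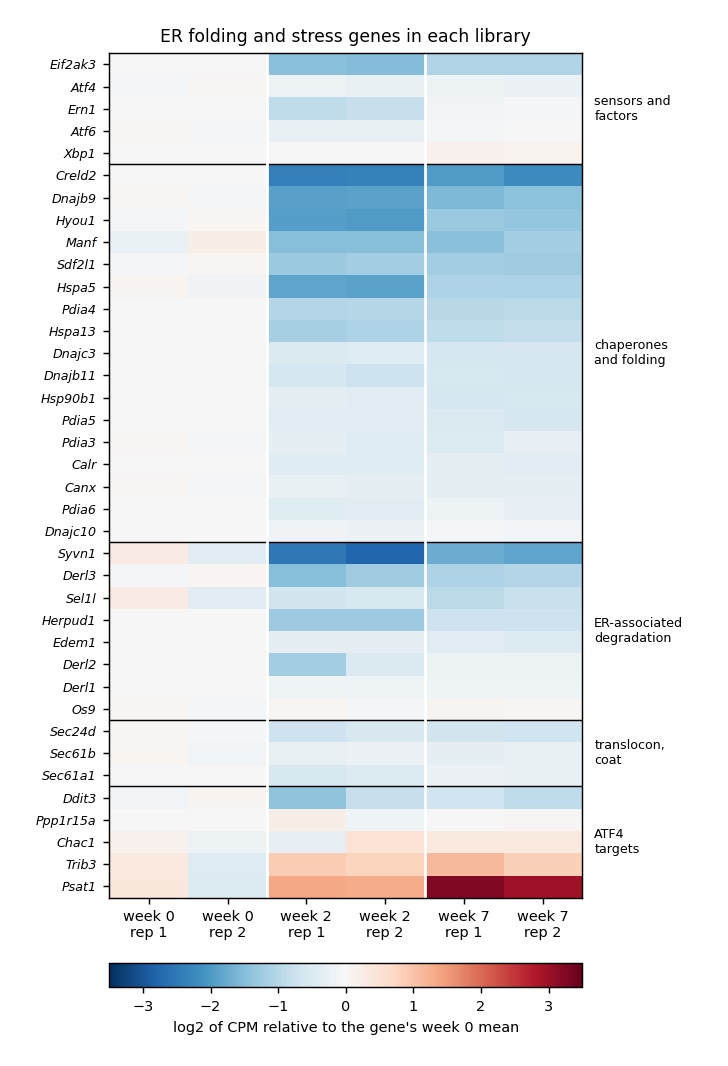
Level of 38 of the 40 genes in each library, as the log2 of CPM (deposited counts scaled by TMM to a common library size) relative to the gene's own week 0 mean, with blue lower and red higher; Asns and Stc2, with libraries at 0 counts, are left out. Most chaperone rows are blue in the week 2 and week 7 columns, and Trib3 and Psat1 are red there.

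Summed over their members, the 17 chaperones and folding factors had 6201 and 6023 in the week 0 libraries, 3502 and 3450.0 in those of week 2 and 3748 and 3778 in those of week 7, in CPM (deposited counts per 1e+06, with TMM scaling). The 8 ERAD genes summed to 1796 and 1626 in the week 0 libraries, 985 and 1004 in those of week 2 and 1166 and 1159 in those of week 7. The sensors and factors summed to 505 and 511 in the week 0 libraries, 431 and 427 in those of week 2 and 495 and 494 in those of week 7. The 7 ATF4 targets summed to 33.4 and 32.8 in the week 0 libraries, 27.8 and 28.4 in those of week 2 and 36.0 and 32.6 in those of week 7. In the first 3 of these groups every library of weeks 2 and 7 lay below both week 0 libraries. In the ATF4 group both week 2 libraries lay below both week 0 libraries, and the week 0 and week 7 libraries overlapped.

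**Figure D2:**
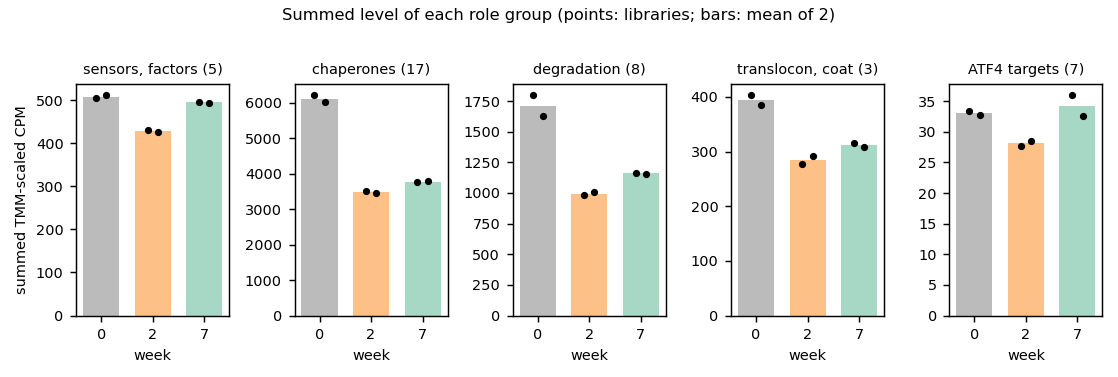
Summed TMM-scaled CPM of each role group by week, with points for libraries, bars for the mean of 2 and the number of genes in brackets; each axis starts at 0. The chaperone and degradation bars of weeks 2 and 7 are below week 0, and the ATF4 bars of weeks 0 and 7 are close.

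Since these are bulk samples, fewer cells of a type and less RNA per cell cannot be told apart. Hepatocyte markers were abundant, with Alb, the albumin gene, at 65921 and 65060.0 CPM at week 0, 98368 and 92607 CPM at week 2 and 54070.0 and 54418 CPM at week 7. The 7 hepatocyte markers found summed to 99151 and 98613 in the week 0 libraries, 122520.0 and 116220.0 in those of week 2 and 86707 and 86592 in those of week 7 in CPM. Of these, 2 were higher and 4 lower at week 7 than at week 0, and likewise 2 were higher and 4 lower at week 2, where Alb carried the larger sum. Kupffer cell and macrophage markers summed to 543 and 540.4 in the week 0 libraries, 774 and 787 in those of week 2 and 406 and 395 in those of week 7. Of these 10, 8 fell at week 7 and 7 rose at week 2, both against week 0. Shares over all genes tested are to be set beside the counts of each marker list. They were 6.23% lower and 7.58% higher at week 7, and 8.81% lower and 9.81% higher at week 2. Stellate cell and fibroblast markers summed to 248 and 251 in the week 0 libraries, 368 and 371 in those of week 2 and 168 and 181 in those of week 7. In this list 5 of 8 were lower and 1 higher at week 7, and 5 were higher and 1 lower at week 2. Liver endothelial markers summed to 347 and 359.8 in the week 0 libraries, 425 and 414 in those of week 2 and 314 and 320.0 in those of week 7. Here 2 of 8 were lower at week 7 and 4 higher at week 2. The part of these cells in the results was not tested. B and plasma cells, which carry much of this machinery, had markers summing to 7.91 and 7.42 in the week 0 libraries, 23.4 and 25.0 in those of week 2 and 50.1 and 48.0 in those of week 7. Of the 9 tested, 2 passed the test as higher at week 7, and the B cell marker Ms4a1 as lower. Ms4a1 had 0 counts in both week 7 libraries, against 19 and 11 at week 0. It passed the filter only through libraries of the other weeks, so its direction is tied to the filter. Cholangiocyte, T and NK cell and neutrophil markers each summed to 36.8 CPM or less in every library, and the neutrophil marker Ly6g was at 0 counts in every library.

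Among the sensors, only Eif2ak3 passed the test at week 7, and the mRNA of Xbp1 did not pass in either treated week. Eif2ak3 (ENSMUSG00000031668) encodes PERK. It had 38.5 and 37.2 CPM at week 0, 13.8 and 13.2 CPM at week 2 and 18.1 and 18.2 CPM at week 7. Its libraries do not overlap between any of the weeks, with a log2 fold change of -1.06 ± 0.096 (SE; adjusted p = 0.000167) at week 7 and -1.49 ± 0.097 (SE; adjusted p = 1e-05) at week 2, both against week 0. Ern1 (ENSMUSG00000020715) is the IRE1 gene. It had 76.3 and 74.5 CPM at week 0, 40.9 and 43.4 CPM at week 2 and 71.2 and 73.7 CPM at week 7. Its level was low at week 2 alone, with a log2 fold change of -0.84 ± 0.069 (SE; adjusted p = 4.56e-05) at week 2 and -0.06 ± 0.069 (SE; adjusted p = 0.668) at week 7. It was higher at week 7 than at week 2 by 0.78 ± 0.069 (SE; adjusted p = 7.49e-05). Xbp1 (ENSMUSG00000020484) had 238 and 245 CPM at week 0, 244 and 242 CPM at week 2 and 266 and 261 CPM at week 7. The week 7 libraries were the higher ones, by 0.13 ± 0.04 (SE; adjusted p = 0.0703). With library totals as the only scaling the adjusted p was 0.0395. Counts per gene do not separate the spliced from the unspliced mRNA of Xbp1, so its activation is not measured here.

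Atf6 (ENSMUSG00000026663) is the gene of the membrane-bound factor ATF6. It had 63.8 and 60.6 CPM at week 0, 52.0 and 51.7 CPM at week 2 and 59.6 and 61.3 CPM at week 7. Its log2 fold change was -0.26 ± 0.069 (SE; adjusted p = 0.0291) at week 2 and -0.04 ± 0.069 (SE; adjusted p = 0.776) at week 7 against week 0. The week 7 and week 0 libraries overlapped. At week 7 against week 2 the log2 fold change of Atf6 was 0.22 ± 0.069 (SE; adjusted p = 0.0541). DESeq2 (adjusted p = 0.021) and limma voom (0.0447) called that difference. Atf4 (ENSMUSG00000042406) had 89.1 and 93.4 CPM at week 0, 80.4 and 76.7 CPM at week 2 and 80.5 and 79.6 CPM at week 7. Both treated weeks lay below week 0, with -0.22 ± 0.062 (SE; adjusted p = 0.0411) at week 2 and -0.19 ± 0.062 (SE; adjusted p = 0.0807) at week 7. DESeq2 called the week 7 difference of Atf4 (adjusted p = 0.0459). The week 2 calls of Atf6 and Atf4 were lost with library totals only (adjusted p = 0.122 and 0.218), with the replicate block (0.0573 and 0.075) and on leaving out any 1 library of weeks 0 or 2 (0.0637 to 0.151 and 0.082 to 0.204). That of Atf4 was also lost without week 7 replicate 1 or 2 (0.052 and 0.0539). With upper-quartile scaling they had 0.0504 and 0.0753.

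**Figure D3:**
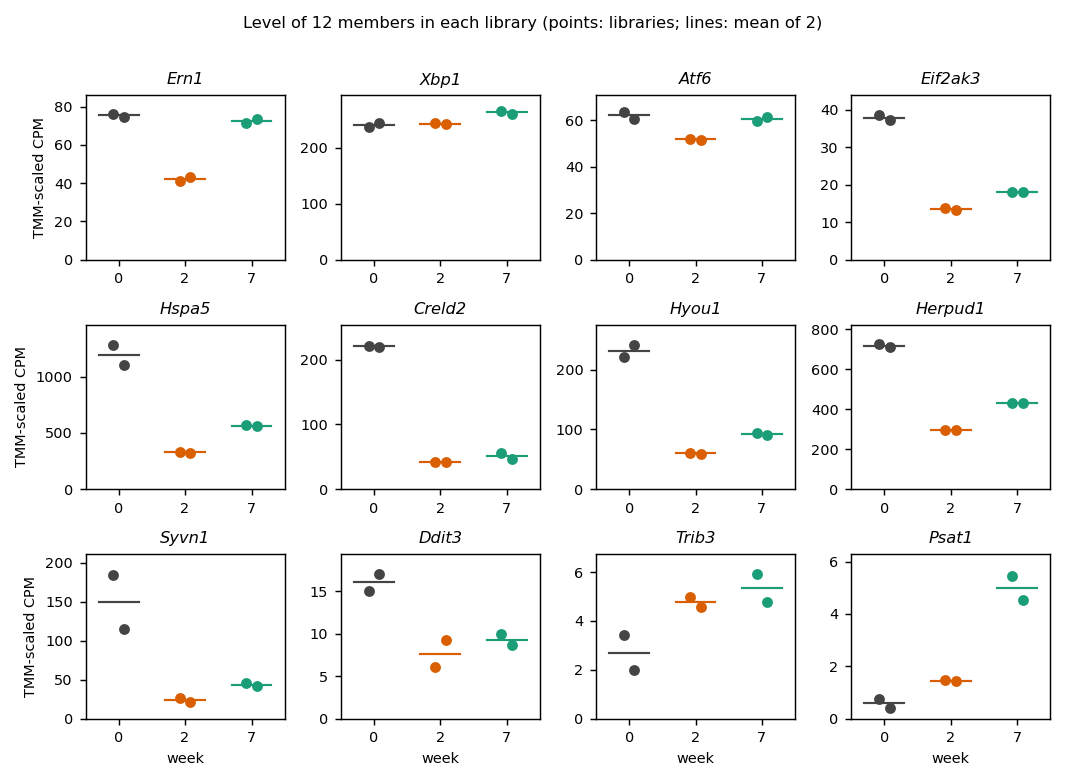
TMM-scaled CPM of 12 of the genes in each library by week, with points for libraries, lines for the mean of 2 and each axis from 0. Ern1 is low at week 2 and close to its week 0 level at week 7, while Hspa5, Hyou1, Herpud1 and Syvn1 are lowest at week 2, and Psat1 is highest at week 7.

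The chaperones that fell most were Creld2, Dnajb9, Hyou1, Manf, Sdf2l1 and Hspa5, each over 2-fold lower at week 7 than at week 0. Creld2 (ENSMUSG00000023272) encodes an ER protein induced by stress. It had 222 and 219 CPM at week 0, 42.0 and 42.5 CPM at week 2 and 55.6 and 46.8 CPM at week 7. The treated libraries lay far under the week 0 pair, 4.30-fold at week 7, a log2 fold change of -2.11 ± 0.082 (SE; adjusted p = 1.13e-06). Dnajb9 (ENSMUSG00000014905) is a J-domain cochaperone that holds IRE1 inactive together with BiP. It had 207 and 195 CPM at week 0, 53.9 and 54.5 CPM at week 2 and 67.8 and 74.6 CPM at week 7. It fell 2.82-fold at week 7, a log2 fold change of -1.50 ± 0.065 (SE; adjusted p = 2.08e-06). Hyou1 (ENSMUSG00000032115) is a large chaperone that acts as nucleotide exchange factor of BiP. It had 221 and 241 CPM at week 0, 60.6 and 58.8 CPM at week 2 and 93.9 and 90.3 CPM at week 7. It fell 2.51-fold at week 7, a log2 fold change of -1.33 ± 0.06 (SE; adjusted p = 2.63e-06). Hspa5 (ENSMUSG00000026864) encodes BiP, the main Hsp70 of the ER. It had 1283 and 1103 CPM at week 0, 329 and 324 CPM at week 2 and 569 and 561 CPM at week 7. The week 0 libraries differed from each other more than those of the other weeks and still lay above all of them. The week 7 log2 fold change was -1.08 ± 0.068 (SE; adjusted p = 0.000157) and that of week 2 was -1.87 ± 0.069 (SE; adjusted p = 5.3e-06).

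Sdf2l1 (ENSMUSG00000022769) is a partner of BiP and of J-domain cochaperones. It had 107 and 116 CPM at week 0, 44.8 and 47.9 CPM at week 2 and 48.3 and 46.8 CPM at week 7. The week 2 and week 7 libraries lay close to each other, and the log2 fold change was -1.23 ± 0.074 (SE; adjusted p = 1.52e-05) at week 7 against week 0. Manf (ENSMUSG00000032575) is a small ER protein that is also secreted. It had 205 and 280.3 CPM at week 0, 85.8 and 86.6 CPM at week 2 and 87.6 and 106 CPM at week 7. Its week 0 replicates lay apart. The log2 fold change was -1.33 ± 0.19 (SE; adjusted p = 0.0207) at week 7, and the call was lost without week 2 replicate 1 or 2, without week 7 replicate 1 or 2 (adjusted p = 0.0709 to 0.108), with no filter (0.0548) and with only the 4 libraries compared (0.0629). The week 2 call of Manf was lost without week 2 replicate 1 or 2 (0.1 and 0.0986). Pdia4 (ENSMUSG00000025823) is a protein disulphide isomerase. It had 305 and 314 CPM at week 0, 152 and 154 CPM at week 2 and 159 and 161 CPM at week 7. It fell 1.93-fold at week 7, a log2 fold change of -0.95 ± 0.042 (SE; adjusted p = 2.08e-06). Hspa13 (ENSMUSG00000032932) is a microsomal Hsp70 family member. It had 64.3 and 63.8 CPM at week 0, 28.8 and 30.4 CPM at week 2 and 34.4 and 35.6 CPM at week 7. Its log2 fold change was -0.87 ± 0.077 (SE; adjusted p = 0.000155) at week 7. Dnajc3 (ENSMUSG00000022136) is a cochaperone that inhibits PERK. It had 322 and 318 CPM at week 0, 225 and 236 CPM at week 2 and 212 and 215 CPM at week 7. It fell with a log2 fold change of -0.59 ± 0.041 (SE; adjusted p = 3.87e-05) at week 7.

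Fold changes were smaller for the remaining chaperones and folding enzymes. Hsp90b1, the ER Hsp90 known as GRP94, fell 1.48-fold at week 7, with 565 and 579 CPM at week 7, against 857 and 839 CPM at week 0. Dnajb11, another BiP cochaperone, fell 1.48-fold and Pdia5, an isomerase, 1.46-fold. The lectin chaperones Calr and Canx, which bind newly made glycoproteins, fell 1.29-fold and 1.25-fold (adjusted p = 0.000157 and 0.00142). Pdia3, the isomerase that works with them, fell 1.30-fold (adjusted p = 0.0116), and Pdia6, an isomerase that binds IRE1, 1.17-fold (adjusted p = 0.0134). Pdia3 had 359 and 414 CPM at week 7, against 516 and 491 CPM at week 0. Pdia6 had 290.1 and 268 CPM at week 7, against 327 and 324 CPM at week 0. The week 0 and week 7 libraries of neither gene overlapped, but the call of Pdia3 was lost without week 0 replicate 1 (0.0768), and that of Pdia6 without week 0 replicate 1 or 2 or week 7 replicate 2 (0.0735, 0.0596 and 0.0619). Dnajc10, a reductase of misfolded proteins, was the chaperone that passed the test in no comparison, with 54.6 and 54.4 CPM at week 0, 49.8 and 47.2 CPM at week 2 and 53.1 and 50.9 CPM at week 7. Exons of some of the 40 genes overlap those of genes on the opposite strand, and since the kit does not mark strand such reads cannot be assigned. Among protein-coding partners on the opposite strand, the largest shared part of exon length was 4.14%, for Manf with Dcaf1. Next were 3.97% for Ddit3 with Mars, 2.87% for Derl2 with Mis12 and 1.87% for Syvn1 with Mrpl49. Ddit3 has 2 gene IDs among the deposited counts, and the longer was used. The other, on the same strand, overlaps 6.13% of the exon length of the longer. It had 6 counts over all 6 libraries, against 3469. Hsp90b1 shares 10.3% with a pseudogene that had 150 counts over all 6 libraries, against 221366 of its own.

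Levels of different genes were compared as CPM per kilobase of exon, with exon lengths from GENCODE M21. At week 0 the highest were Calr at 312 ± 5.85, Herpud1 at 308 ± 5.08 and Hspa5 at 282 ± 30.1 (mean ± SD, n = 2), which did not differ beyond the spread of Hspa5, followed by Hsp90b1 at 210.4 ± 3.23. At week 2 Calr led at 232 ± 0.362, before Hsp90b1 at 162 ± 4.46, Herpud1 at 127 ± 0.578, Pdia3 at 123 ± 4.25 and Hspa5 at 77.3 ± 0.855. Herpud1 and Pdia3 lay within the spread of Pdia3. At week 7 the order was Calr at 242 ± 5.15, Herpud1 at 185 ± 0.739, Hsp90b1 at 142 ± 2.34 and Hspa5 at 134 ± 1.43, with Pdia3 at 123 ± 12.5 and not beyond its own spread from Hspa5.

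In ERAD, Syvn1, Herpud1, Edem1 and Derl3 fell at week 7, and Os9, Derl1, Derl2 and Sel1l did not pass the test. Herpud1 (ENSMUSG00000031770) is a membrane protein of the ERAD complex. It had 727 and 709.8 CPM at week 0, 296 and 298 CPM at week 2 and 433 and 431 CPM at week 7. Replicates were close in each week, and it fell 1.66-fold at week 7, a log2 fold change of -0.73 ± 0.033 (SE; adjusted p = 2.63e-06). Syvn1 (ENSMUSG00000024807) is the ubiquitin ligase HRD1 of that complex. It had 184 and 115 CPM at week 0, 26.6 and 21.8 CPM at week 2 and 45.2 and 42.0 CPM at week 7. Its 2 week 0 libraries differed 1.60-fold and both lay above the rest, with a log2 fold change of -1.78 ± 0.27 (SE; adjusted p = 0.0274) at week 7. That call was lost without week 2 replicate 1 or 2, without week 7 replicate 1 or 2 (adjusted p = 0.0738 to 0.169), with no filter (0.0652), limma voom (0.0752) and only the 4 libraries compared (0.0598). At week 2 the log2 fold change of Syvn1 was -2.63 ± 0.28 (SE; adjusted p = 0.00783), a call lost without week 2 replicate 1 or 2 (0.0598 and 0.0722).

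Sel1l (ENSMUSG00000020964) is the adaptor that stabilises HRD1. It had 201 and 128 CPM at week 0, 105 and 111 CPM at week 2 and 85.9 and 95.3 CPM at week 7. Its week 0 libraries were split much as those of Syvn1 were. The week 7 log2 fold change of -0.86 ± 0.25 (SE; adjusted p = 0.131) was not called with both of them. DESeq2 called it (adjusted p = 0.0116). Without week 0 replicate 1 or 2 the value was -0.496 and -1.15, in fits that leave 1 week 0 library and so hide the split. At week 2 the difference was -0.60 ± 0.25 (SE; adjusted p = 0.216), and -0.895 without week 0 replicate 2, with the same limit. Derl2, one of the derlins that form the channel for misfolded proteins, had 122 and 121 CPM at week 0, 52.7 and 85.1 CPM at week 2 and 108 and 107 CPM at week 7. Here the week 2 libraries lay apart. The difference of -0.82 ± 0.25 (SE; adjusted p = 0.121) at week 2 was called by DESeq2 (0.0173). Without week 2 replicate 1 or 2 it was -0.514 and -1.2, in fits that leave 1 week 2 library and so hide the gap between them. Derl3 (ENSMUSG00000009092) is the derlin most typical of secretory cells, and was rare. Its level was 3.57 and 3.96 CPM at week 0, 1.35 and 1.59 CPM at week 2 and 1.78 and 1.84 CPM at week 7. Its fall at week 7, -1.06 ± 0.28 (SE; adjusted p = 0.0358), was lost with the replicate block (0.0551) and on leaving out any 1 library of weeks 0 or 7 (0.0973 to 0.15). At week 2 it fell, with a log2 fold change of -1.36 ± 0.28 (SE; adjusted p = 0.00952), lost without week 0 replicate 2 or week 2 replicate 1 (0.0536 and 0.0621). Edem1, a mannosidase-like ERAD factor, fell 1.36-fold at week 7 (adjusted p = 0.000244). The ERAD lectin gene Os9 had 179.5 and 169.8 CPM at week 0, 185 and 169 CPM at week 2 and 187 and 181 CPM at week 7. The derlin gene Derl1 had 147 and 148 CPM at week 0, 133 and 132 CPM at week 2 and 132 and 133 CPM at week 7. It was called lower at week 7 by DESeq2 (adjusted p = 0.029) and with upper-quartile scaling (0.0407), and at week 2 by DESeq2 (0.0255) and with counts divided by 4 (0.0486).

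Genes of the entry and exit of ER proteins fell too. Sec24d (ENSMUSG00000039234) is a cargo adaptor of COPII vesicles. It had 91.4 and 85.8 CPM at week 0, 53.6 and 59.9 CPM at week 2 and 56.7 and 55.1 CPM at week 7. It fell with a log2 fold change of -0.66 ± 0.077 (SE; adjusted p = 0.000705) at week 7. The translocon subunits Sec61a1 and Sec61b fell 1.17-fold and 1.24-fold at week 7 (adjusted p = 0.0142 and 0.0237). Sec61a1 had 180.4 and 172 CPM at week 7, against 206 and 206 CPM at week 0. Sec61b had 77.8 and 82.0 CPM at week 7, against 105 and 93.3 CPM at week 0. Of these calls, that of Sec61a1 was lost without week 0 replicate 1 or 2 or week 7 replicate 2 (0.0699 to 0.0769). That of Sec61b was lost with the replicate block (0.0506) and on leaving out week 0 replicate 1 or either week 7 library (0.0549 to 0.147).

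**Figure D4:**
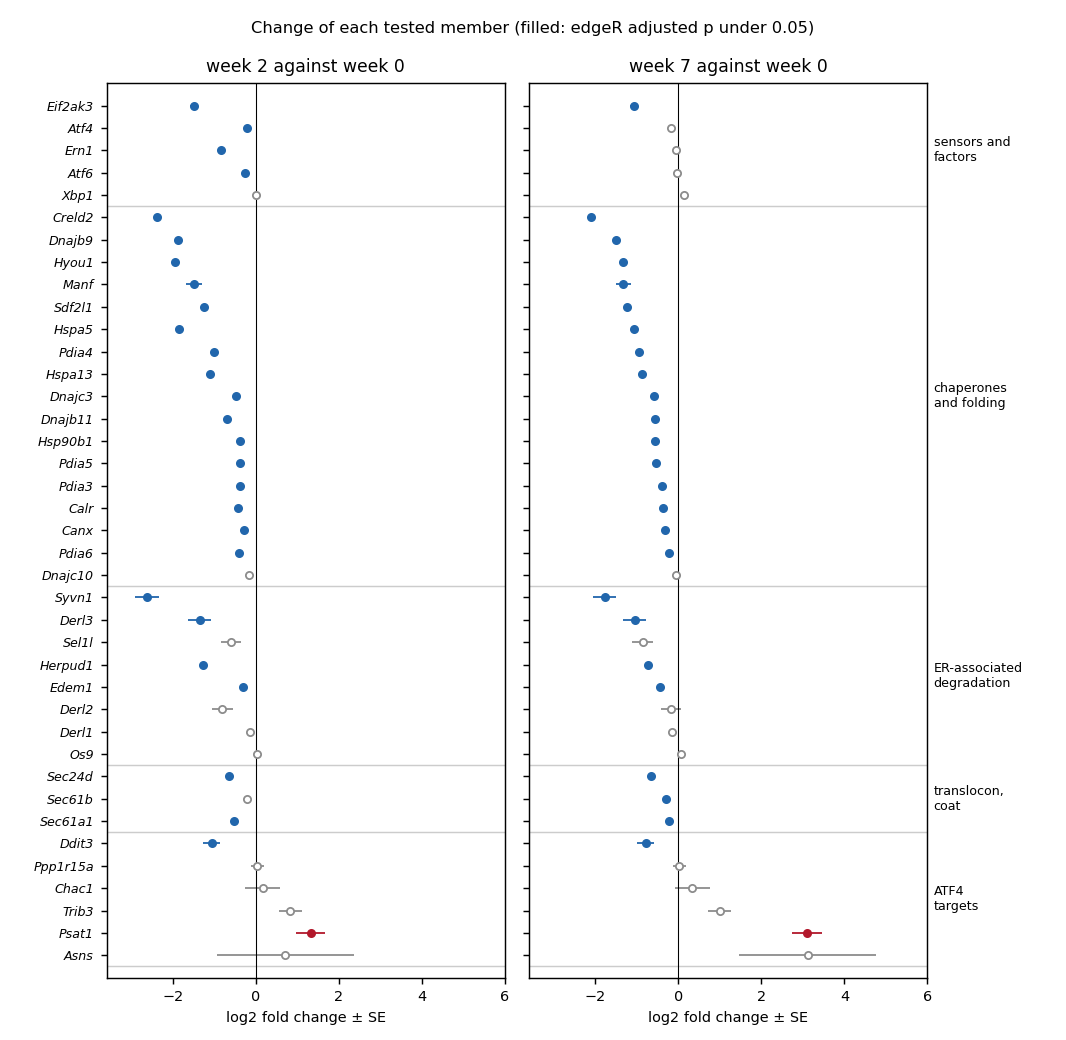
Log2 fold change with SE of the 39 tested genes at week 2 and at week 7 against the same week 0 libraries, grouped by role, with filled points where the edgeR adjusted p is under 0.05 (blue lower, red higher). At week 7, 16 of 17 chaperones are filled blue points, and of the ATF4 targets Ddit3 is blue and Psat1 red.

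Several of the fallen genes carry the ER stress element in their promoters, the sequence through which ATF6 and XBP1 act together with the factor NF-Y. RefSeq promoters (GRCm38.p6, 250 bases before to 50 after each start) were found for 34 of the 40 genes. Atf6, Derl1, Hspa13, Hyou1, Manf and Sec61a1 had none in the table. The element (ERSE, written as CCAAT, 9 bases of any kind and CCACG, on either strand) was present in 9 of the 34, namely Calr, Canx, Creld2, Derl3, Dnajc3, Hsp90b1, Hspa5, Pdia6 and Syvn1, and in 0.137% of the 27025 genes with a promoter. The related ERSE-II (ATTGG, 1 base of any kind and CCACG) was present in Dnajb11 and Herpud1, and in 0.0444% of all genes. The 40 genes were listed for their role in this response, so these shares are not independent of how the list was chosen. Whether the element has a part in the falls was not tested. Windows are shown for Hspa5, Creld2 and Syvn1, which fell over 2-fold at week 7, for Dnajc3, which fell less, for Hsp90b1, where the element occurs 2 times, and for the ERSE-II of Herpud1. Fixed letters of the element are in capitals, each window is written 5′ to 3′ on the strand of its gene, and all lie before the start.
Hspa5: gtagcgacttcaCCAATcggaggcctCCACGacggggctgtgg
Creld2: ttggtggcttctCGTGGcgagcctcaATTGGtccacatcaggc
Syvn1: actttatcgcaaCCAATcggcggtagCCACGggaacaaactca
Dnajc3: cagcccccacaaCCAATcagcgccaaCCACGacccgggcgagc
Hsp90b1: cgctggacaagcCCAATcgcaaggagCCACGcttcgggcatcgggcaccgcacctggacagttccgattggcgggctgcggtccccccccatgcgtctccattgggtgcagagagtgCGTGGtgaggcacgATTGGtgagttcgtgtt
Herpud1: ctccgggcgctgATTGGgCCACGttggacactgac

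The windows are chr2:34772013-34772055 (plus strand) for Hspa5, chr15:88819508-88819550 (plus strand) for Creld2, chr19:6046520-6046562 (plus strand) for Syvn1, chr14:118937815-118937857 (plus strand) for Dnajc3, chr10:86705521-86705668 (minus strand) for Hsp90b1 and chr8:94386365-94386399 (plus strand) for Herpud1. All 9 genes with an ERSE and both with an ERSE-II fell at week 7. So did 12 of the 24 tested genes with a promoter but no ERSE, both ERSE-II genes included. Of all genes tested, 6.23% fell. Among chaperones with a promoter, the 7 with an ERSE had a median log2 fold change of -0.568 at week 7. The 7 without it had one of -0.57, with 7 and 6 of them called. At week 2 these medians were -0.424 with an ERSE and -0.692 without it. The UPRE core (TGACGTGG) was present in Sec24d alone of the 34, against 0.714% of all genes. None of these motifs overlapped another in the promoters of the 34 genes.

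Of the 7 ATF4 targets, 6 were tested. Psat1 rose and Ddit3 fell at week 7, the others tested were not called, and Stc2 was not tested. Ddit3 (ENSMUSG00000025408) is the gene of the transcription factor CHOP. It had 15.1 and 17.1 CPM at week 0, 6.04 and 9.28 CPM at week 2 and 9.95 and 8.64 CPM at week 7, with all treated libraries below week 0. Its log2 fold change was -1.07 ± 0.21 (SE; adjusted p = 0.00754) at week 2 and -0.79 ± 0.21 (SE; adjusted p = 0.0369) at week 7. The week 7 call was lost with the replicate block (0.0556) and on leaving out any 1 library of weeks 0 or 7 (0.0827 to 0.179). Psat1 (ENSMUSG00000024640) is an enzyme of serine synthesis. It had 0.741 and 0.415 CPM at week 0, 1.47 and 1.42 CPM at week 2 and 5.46 and 4.52 CPM at week 7. It rose 8.64-fold at week 7 against week 0, by 3.10 ± 0.36 (SE; adjusted p = 0.000685) on the log2 scale. It was higher at week 7 than at week 2 by 1.79 ± 0.33 (SE; adjusted p = 0.00542), a call lost without week 7 replicate 1 (0.0512). The rise at week 2 against week 0, 1.31 ± 0.35 (SE; adjusted p = 0.0327), was lost with limma voom (0.125), with only the 4 libraries compared (0.127), and on leaving out any library but week 0 replicate 1 (0.0579 to 0.136). Behind these levels stand 295 and 231 deposited counts at week 7, against 37 and 20 at week 0.

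Trib3 (ENSMUSG00000032715) is a pseudokinase that feeds back on ATF4 signalling. It had 3.41 and 1.97 CPM at week 0, 4.97 and 4.59 CPM at week 2 and 5.93 and 4.77 CPM at week 7. All treated libraries were above both week 0 libraries, and the log2 fold change of 0.99 ± 0.28 (SE; adjusted p = 0.052) at week 7 just missed the threshold. It was called with library totals only, no filter, counts divided by 4, DESeq2, limma voom and the replicate block (adjusted p = 0.025 to 0.0425). Without week 0 replicate 1, which leaves 1 week 0 library, the value was 1.44. At week 2 the log2 fold change of Trib3 was 0.83 ± 0.28 (SE; adjusted p = 0.0784), and 1.28 without week 0 replicate 1. Ppp1r15a (ENSMUSG00000040435) encodes the phosphatase subunit GADD34 that reverses the PERK signal. It had 12.7 and 12.2 CPM at week 0, 14.2 and 11.3 CPM at week 2 and 12.5 and 12.8 CPM at week 7. Its week 0 and week 7 libraries overlapped, with a log2 fold change of 0.03 ± 0.15 (SE; adjusted p = 0.948) at week 7. Chac1 (ENSMUSG00000027313) degrades glutathione. It had 1.34 and 1.08 CPM at week 0, 0.984 and 1.72 CPM at week 2 and 1.54 and 1.53 CPM at week 7. The log2 fold change was 0.34 ± 0.42 (SE; adjusted p = 0.684) at week 7. Asns (ENSMUSG00000029752), asparagine synthetase, was near 0, with 5 and 0 counts in the week 0 libraries, 5 and 5 in those of week 2 and 31 and 17 in those of week 7. It passed the filter through its week 7 libraries (adjusted p = 0.27 at week 7 against week 0). Stc2 had 4 counts in week 2 replicate 2 and 0 in the other libraries.

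The C/EBP-ATF composite element through which ATF4 acts (CARE, here TGATGNAA on either strand) was found in the promoters of Asns, Chac1 and Trib3 among the 7 ATF4 targets, and in Herpud1 among the other 27 genes with a promoter, against 4.51% of all genes. Of the promoters with the element before the start, 2 are shown, both of ATF4 targets that did not pass the test, with fixed letters in capitals.
Chac1: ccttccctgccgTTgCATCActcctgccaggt
Asns: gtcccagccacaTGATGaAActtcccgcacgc

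The windows are chr2:119351037-119351068 (plus strand) for Chac1 and chr6:7693213-7693244 (minus strand) for Asns. None of the 7 ATF4 targets had an ERSE or ERSE-II in its promoter. They were listed as ATF4 targets, so their share with a CARE is not independent of the list.

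At week 2, in the libraries that read as female, 27 of the 39 tested genes were lower and 1 higher than at week 0. Of all genes tested, 8.81% were lower, 9.81% higher and 18.6% either. Lower genes made up 16 of 17 chaperones, 4 of 8 ERAD genes and 4 of 5 sensors and factors. They also made up 2 of 3 translocation and coat genes and 1 of the 6 tested ATF4 targets. Both comparisons use the same week 0 libraries, so their values are given side by side. The largest falls at week 2 were those of Syvn1, 6.18-fold against 3.43-fold at week 7, Creld2, 5.21-fold against 4.30-fold, Hyou1, 3.87-fold against 2.51-fold, and Dnajb9, 3.71-fold against 2.82-fold. Pdia3 fell 1.31-fold at week 2 (adjusted p = 0.00822), a call lost without week 0 replicate 1 or week 2 replicate 2 (0.0599 and 0.0581). Sec61b had a log2 fold change of -0.23 ± 0.073 (SE; adjusted p = 0.0611) at week 2. It was called with no filter, counts divided by 4, DESeq2 and limma voom (0.0412 to 0.0451), and the value was -0.31 without week 0 replicate 2. With library totals only, the median of all genes moved to 0.105 in this comparison, and 26 of the 39 were called.

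Tested directly, in libraries that differ in sex as well as in time, week 7 was higher than week 2 for 10 of the 39 genes and lower for 1. Of all genes tested, 10.1% were higher, 9.73% lower and 19.8% either. The higher genes were Ern1, Eif2ak3, Hspa5, Hyou1, Dnajb9, Creld2, Pdia6, Herpud1, Sec61a1 and Psat1, and the lower one was Hsp90b1. Hspa5 had 569 and 561 CPM at week 7 and 329 and 324 CPM at week 2, higher by a log2 fold change of 0.79 ± 0.067 (SE; adjusted p = 0.000341). For Herpud1 the levels were 433 and 431 CPM at week 7 and 296 and 298 CPM at week 2, higher by 0.54 ± 0.033 (SE; adjusted p = 7.21e-06). Hyou1 was higher by 0.63 ± 0.06 (SE; adjusted p = 0.00012), Dnajb9 by 0.39 ± 0.064 (SE; adjusted p = 0.00287) and Sec61a1 by 0.30 ± 0.047 (SE; adjusted p = 0.00256), while Hsp90b1 had -0.19 ± 0.034 (SE; adjusted p = 0.0045). Sdf2l1, Pdia4, Calr and Canx, all lower than at week 0 in both treated weeks, had log2 fold changes between them of 0.04, 0.07, 0.06 and -0.02 that did not pass the test. Under upper-quartile scaling 8 of these genes were higher and 3 lower, and library totals only gave the same split. Both these scalings lost Creld2 (adjusted p = 0.0847 and 0.0993) and Pdia6 (0.0573 and 0.0803) and called Dnajc3 and Edem1 lower. Without week 7 replicate 1, 7 genes were called in all. Creld2 was also lost with the replicate block (0.0555), only the 4 libraries compared (0.0936), and on leaving out any library but week 7 replicate 2 (0.0658 to 0.173). Eif2ak3 was lost on leaving out any 1 library of weeks 2 or 7 (0.0524 to 0.0883), Pdia6 on leaving out either week 2 library or week 7 replicate 1 (0.0719 to 0.0998) and Hsp90b1 without week 2 replicate 1 (0.0587).

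Other genes of the pathway, in lists of 147 genes outside the 40, were taken from the same fits. At week 7 against week 0, 35 of the 145 tested fell and 8 rose. The shares over all genes tested, to be set beside the counts of each list, were 6.23% fallen and 7.58% risen. Of 35 other ER folding genes 9 fell and 0 rose, with a median log2 fold change of -0.124. They included Ero1lb, an ER oxidase, at 59.8 and 61.8 CPM at week 7, against 108 and 99.2 CPM at week 0 (log2 fold change -0.77, adjusted p = 0.000166), the isomerase Txndc5 (-0.29, 0.0013) and Txndc11 (-0.58, 0.00355). Of 24 other ERAD genes 7 fell and 1 rose, with a median of -0.0432. Ubxn4, which recruits the ATPase p97 to the ER, fell by 0.67 on the log2 scale (adjusted p = 0.000124), Selenok by 0.46 (0.00276) and the mannosidase Edem3 by 0.52 (0.00396). The ubiquitin ligase March6 rose by 0.24 (0.0238), a call lost with the replicate block (0.0516) and on leaving out any 1 library of weeks 0 or 7 (0.0545 to 0.134).

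Of 39 other genes of translocation and ER export 13 fell and 0 rose at week 7, with a median log2 fold change of -0.188. Again 6.23% of all genes tested fell and 7.58% rose. Ssr3, a subunit of the translocon-associated complex, fell by 0.40 on the log2 scale (adjusted p = 0.000442), Tram1 by 0.41 (0.000704), and Sec23b, a COPII coat subunit, by 0.80 (0.0026). Of 17 tested other regulators 4 fell and 0 rose, with a median of -0.0608. Creb3l2, an ATF6-like factor of the ER membrane, was at 20.3 and 20.0 CPM at week 7, against 36.0 and 39.3 CPM at week 0 (-0.90, 0.000537). Wfs1, which encodes the ER membrane protein wolframin, fell by 0.70 (0.0156), a call lost on leaving out any 1 library of weeks 0 or 7 (0.0618 to 0.0808). Cebpg, a partner of ATF4, fell by 0.41 (0.0075), lost without week 0 replicate 1 (0.0539).

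The other ATF4 and amino acid response genes were the list in which more genes rose than fell. In it 7 rose and 2 fell of 30 tested, with a median of 0.092, while 7.58% of all genes tested rose and 6.23% fell. Phgdh, which catalyses the first step of serine synthesis, had 280 and 140 deposited counts at week 7, against 5 and 0 at week 0 (adjusted p = 0.00193; 0.0607 with limma voom). Psat1 acts in the same pathway. Phgdh, which is among the 7 risen genes, passed the filter through its libraries of weeks 2 and 7, so its direction is tied to the filter. Gars, a glycyl-tRNA synthetase, rose by 0.55 on the log2 scale (adjusted p = 0.00139) and Slc38a2, a neutral amino acid transporter, by 0.44 (0.00175). Tars, a threonyl-tRNA synthetase, fell by 0.58 (0.00142). Gdf15, a stress hormone, fell by 1.03 (0.016), lost on leaving out the first library of week 0 or either library of week 7 (0.0698 to 0.0768). At week 2 against week 0, 45 of the 145 tested pathway genes were lower and 9 higher, and of the ATF4 list 6 were lower and 5 higher. Over all genes tested, 8.81% were lower and 9.81% higher in that comparison.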

How the data were processed

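Poly-A RNA-seq of mouse liver cells was analysed in 6 libraries, 2 per week, grouped by the week in the labels. Per the labels' protocols, TruSeq V2, a kit that does not mark strand, was used with paired-end sequencing. The authors deposited 1 table of whole numbers per gene and library, taken here as estimated counts; how they were made is not stated, and their totals differ between libraries, so they are not scaled to depth. The submitters' processing notes name Bowtie 0.12.2 and mm8 without a role; the counting program is not given in the sources used here. Low values sat mostly at multiples of 4 or 1 above (68.3% to 69.6% of low values per library), so 1 deposited count need not be 1 read. Of 54446 gene IDs, 54409 matched a name in GENCODE M21.

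Counts, already whole, were tested with edgeR 4.0.16 in R 4.3.3 (filterByExpr, TMM scaling, 1 coefficient per week, robust quasi-likelihood F-test, 3 residual degrees of freedom before shrinkage, Benjamini-Hochberg adjusted p under 0.05 over 15368 genes). The SE of a log2 fold change is its size divided by the square root of F. CPM are TMM-scaled. Alternatives were other scalings, other filters, counts divided by 4, DESeq2 1.42.0, limma 3.58.1 voom, a replicate block, only the 4 libraries compared and each library left out. The procedure was tested on simulated data with a smaller spread than here, where the common biological coefficient of variation was 0.209. Only genes of higher counts were changed there, so genes of few counts are not covered. The 40 genes and the pathway and marker lists were chosen with earlier results of these data known. Values in every library are given for the sensors, the ATF4 targets, genes called at week 7 with a fold of at least 1.5 and the largest changes of week 2, and for some others that go against their group or whose call depended on a library. Of the pathway genes outside the 40, up to 3 per list and direction with the smallest adjusted p at week 7 against week 0 were named. Library totals were 49353453 to 58434358 counts, and with 2 libraries a week the spread within a week is known only roughly.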

Additional observations from a re-analysis of the deposited data

How the results depend on the processing

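Of the called genes among the 40, 18 of 26 at week 7 against week 0, 21 of 28 at week 2 against week 0 and 6 of 11 at week 7 against week 2 stayed called under every alternative run, and no called value changed direction. Leaving out 1 library at a time gave 19 to 24, 23 to 26 and 7 to 12 of the 40 called in these comparisons, and 1298 to 1856, 1801 to 2752 and 1842 to 2961 genes in all. At adjusted p under 0.01, 1008 of 2123, 1574 of 2862 and 1632 of 3040 genes were called. Uncalled values that changed sign were, leaving out a library at week 2 against week 0, those of Asns (-0.249 to 5.23), Chac1 (-0.296 to 0.506), Os9 (-0.0485 to 0.0822), Ppp1r15a (-0.145 to 0.194) and Xbp1 (-0.0137 to 0.0336). At week 7 against week 2 the alternatives were followed gene by gene for 14 of the 40, and among these the value of Atf4 was -0.0279 with upper-quartile scaling, -0.0268 with library totals only and -0.00598 to 0.0637 leaving out a library. With library totals only, 2007 genes were higher and 913 lower at week 2 against week 0, where TMM scaling gave 1508 and 1354. The cause was not tested. Over all genes, replicates of the same number did not deviate together (correlations of -0.0019, -0.0146 and -0.013). With 2 libraries a week this cannot exclude that the numbers pair the libraries. With the replicate block, 24, 26 and 11 of the 40 genes and 1702, 2436 and 2620 genes in all were called. With 2 libraries a week, genes of few counts such as Asns, Stc2, Chac1 and Derl3 are limited by depth.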
